A study of Sus scrofa with 22 samples.

Results

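The transcripts described here belong to 10 genes of the circadian clock in pig foliate papillae and in organoids grown from them: the period genes PER1, PER2 and PER3, the cryptochromes CRY1 and CRY2, the nuclear receptors NR1D1 and NR1D2, the transcription factors DBP and TEF, and CLOCK. The genes were chosen by name, with earlier results of these data known. All 10 of 10 were found among the 27376 genes counted in the papilla, passage 1 and FGF10 libraries. They were also found among the 29850 counted in the libraries of the CQ experiment. Bulk RNA sequencing covered 22 libraries in 6 groups. Foliate papillae, taste bud bearing ridges on the lateral tongue, came from 5 pigs. Organoids of the same 5 pigs were sequenced at passage 1, in a growth medium called LPM that held FGF10 at 100 ng/ml, forskolin at 1 µM, prostaglandin E2 at 20 nM and insulin at 10 nM and was renewed every 48 h. In the FGF10 experiment, 3 organoid cultures in LPM stood beside 3 in LPM from which FGF10 was left out. In the CQ experiment, 3 organoid cultures in LPM stood beside 3 that were moved from LPM to CQ on day 10 and kept there until day 16 or 17.

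The full names behind LPM and CQ, the composition of CQ and the day on which its LPM controls were taken are not given in the sources used here, so culture age and medium cannot be told apart. The hour of day at which papillae or cultures were collected is also not given in the sources used here, and each pig or culture was sampled at a single time, so phase and amplitude of a rhythm were not measured. The organoid samples are labelled as a foliate cell line. Whether the 3 cultures of each media group came from separate pigs is not stated, and p-values there measure only the spread between these samples, which may be technical. Papilla and organoid RNA was made with different kits, so kit and tissue cannot be told apart.

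The clock of a mammalian cell is a loop of transcription factors that switch off their own production. CLOCK or its relative NPAS2 pairs with ARNTL, also called BMAL1, or with ARNTL2, and the pair binds E-box sites to turn on the PER, CRY, NR1D, DBP and TEF genes. PER and CRY proteins then return to the nucleus and block that pair. NR1D1 and NR1D2, also called REV-ERB alpha and beta, repress ARNTL, which the ROR receptors activate from the same sites, and DBP, TEF and HLF activate D-box genes that NFIL3 represses. Epithelia, oral epithelium included, run such clocks, and PER1 and PER2 can also be induced within hours by cyclic AMP, glucocorticoids or fresh serum, independently of the time of day.

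Library totals ran from 14.67 to 27.77 M (1e6) counts. Libraries of CQ cultures held the fewest, 14.67 to 16.0 M, and had 14014 to 16005 genes with at least 1 count, against 17489 to 17920 in their LPM controls. Counts in the CQ libraries also scattered most: among genes with a mean of 10 to 30 counts, the median ratio of variance to mean was 12.6 in CQ and 1.73 in its LPM controls, and 1.13 to 4.87 in the other groups. A pair of libraries stood apart within their groups. Passage 1 organoids of pig 4 held the proliferation marker MKI67 at 283 CPM, against 4.60 to 32.9 CPM in the other 4, and LPM replicate 3 of the CQ experiment differed from both other replicates by a mean chi-square of 41.1 to 60.6 per gene, against 6.58 between those. The epithelial markers KRT5, KRT15, TP63, EPCAM and CDH1 summed to 2925 to 12044 CPM per library and the taste cell markers TRPM5, PLCB2, GNAT3, ENTPD2, PKD2L1 and KRT8 to 387 to 3099 CPM, with GNAT3 at 0 in the CQ libraries. Levels below are CPM, counts as a share of the library scaled by TMM within each comparison, given as mean ± SD, and a gene was called when its edgeR quasi-likelihood test had a Benjamini-Hochberg adjusted p under 0.05.

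**Figure D1:**
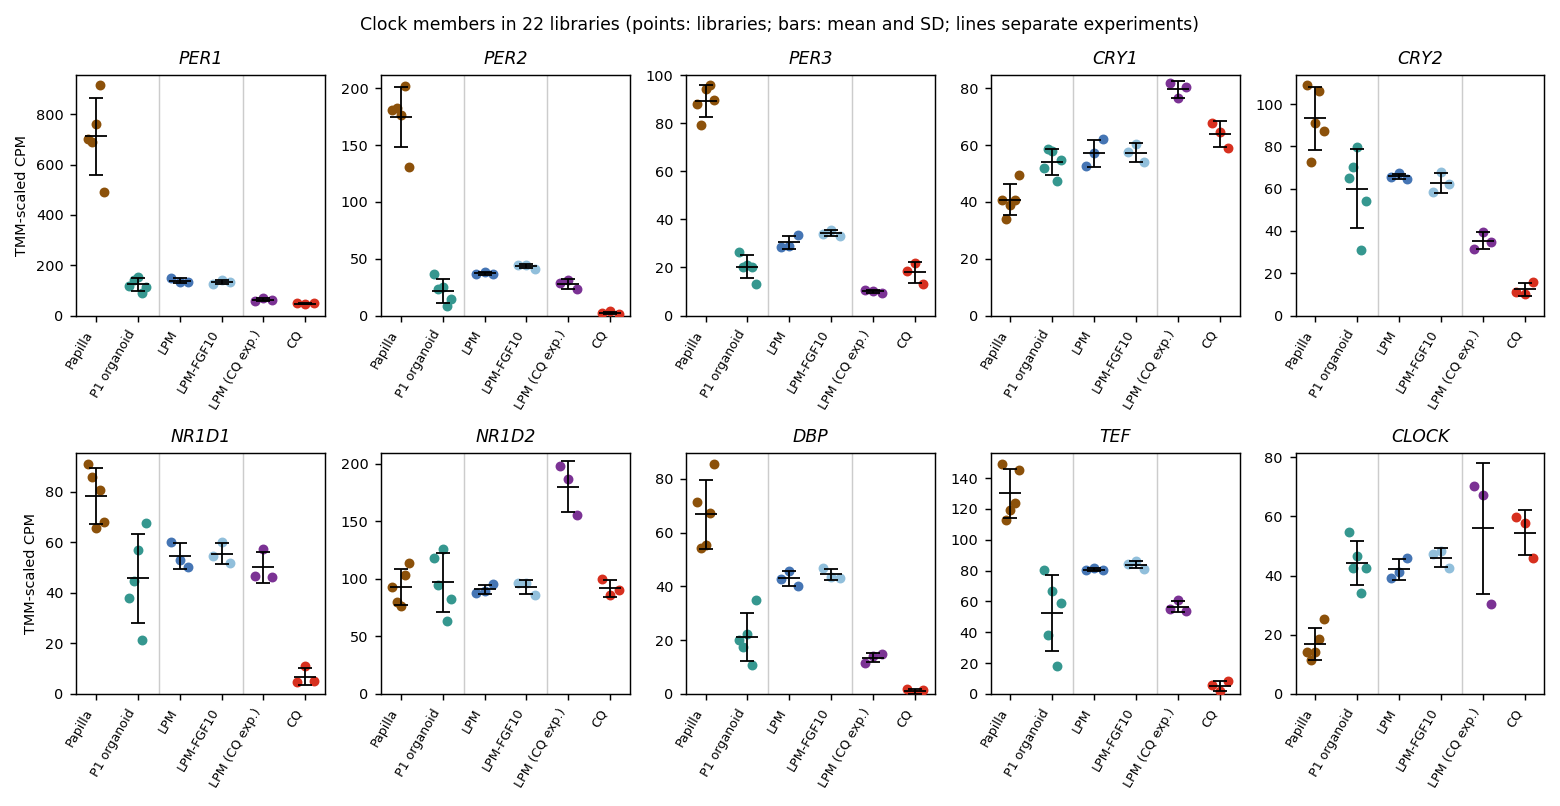
Level of each clock gene (TMM-scaled CPM, linear axis from 0) in 22 libraries of 6 groups, with points for libraries, bars for the group mean and SD (n = 5 for papillae and passage 1 organoids, n = 3 for the others) and grey lines between experiments. PER1, PER2 and PER3 were highest in papillae, while CQ cultures held PER2, NR1D1, DBP and TEF at 10.9 CPM or less in every library.

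Per kilobase of annotated exon, PER1 was the most abundant member in papillae at 117 CPM per kb. TEF (27.3), DBP (23.8), PER2 (22.9) and NR1D2 (17.8 CPM per kb) followed, and CLOCK (2.45) and CRY1 (2.36 CPM per kb) were the lowest. In passage 1 organoids the order was flatter, from PER1 at 20.3 and NR1D2 at 18.5 CPM per kb down to PER2 at 2.85 and PER3 at 1.31 CPM per kb. CQ cultures had NR1D2 (17.5), CLOCK (7.98) and PER1 (7.84 CPM per kb) at the top and DBP (0.351) and PER2 (0.320 CPM per kb) at the bottom, in an order the low counts do not settle. These ranks are approximate, because the length covers all annotated exons, 17277 bases for CRY1 and 2801 for DBP, used or not. Without division by length, CRY1 (40.8 CPM) stood above CLOCK (16.7 CPM) in papillae. CLOCK and NR1D1 also share 44.3% and 41.1% of their exonic bases with a neighbour, whose reads may be included.

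Passage 1 organoids were compared with papillae to describe how the cultures differ from the tissue they came from. The period genes and the D-box activators DBP and TEF fell, whereas CLOCK and, by less, CRY1 rose. CRY2 and NR1D1 fell by less than 2-fold, and NR1D2 was not called. In all 9 of 10 members were called, 2 higher and 7 lower. This share stands beside a background of 67.5% of the 16311 genes tested, of which 32.4% were called higher and 35.1% called lower, so a call by itself sets the clock genes little apart. The median log2 fold change of the members was -1.04, against -0.01 over all genes tested. The spread over all genes was wide. Of these, 13.7% had a lower log2 fold change than PER2, the member that fell most, and 92.1% a lower one than CLOCK, the member that rose most.

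The 3 period genes fell by more than 4-fold each. PER1, a period gene that cyclic AMP induces (chromosome 12, 53361863 to 53376723, minus strand, Sscrofa11.1), was at 700.3, 692, 763, 915 and 491 CPM in papillae of pigs 1 to 5 and at 118, 143, 154, 91.6 and 113 CPM in their organoids. No organoid library came near the lowest papilla. The mean went from 712 ± 152 to 124 ± 24.8 CPM (n = 5 each), a 5.75-fold decrease (log2 fold change -2.52, SE 0.20, edgeR adjusted p = 1.24e-06).

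PER2, whose protein carries much of the repression together with CRY (chromosome 15, 137793419 to 137837854, minus strand), was at 181, 183, 176, 202 and 131 CPM in papillae and at 36.5, 23.4, 25.5, 8.69 and 14.5 CPM in organoids. Organoids of pig 4 were the lowest, and the groups did not overlap. PER2 fell 8.05-fold (log2 fold change -3.01, SE 0.33, edgeR adjusted p = 1.29e-05), more than any other member. PER3, the period gene least needed for the rhythm itself (chromosome 6, 68487634 to 68548718, plus strand), was at 79.1 to 95.8 CPM in papillae and 13.1 to 26.5 CPM in organoids and fell 4.41-fold (log2 fold change -2.14, SE 0.17, edgeR adjusted p = 1.02e-06). All 3 period genes were lower in the organoids of every one of the 5 pigs.

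The cryptochromes moved apart. CRY2 (chromosome 2, 16587101 to 16620380, minus strand) had 109, 72.6, 91.3, 106 and 87.3 CPM in papillae and 65.1, 70.3, 79.9, 30.9 and 54.2 CPM in organoids. It was lower in organoids of all 5 pigs, in pig 2 by only 1.03-fold, and the groups overlapped. Its 1.55-fold decrease (log2 fold change -0.64, SE 0.22, edgeR adjusted p = 0.0255) was lost without the papilla of pig 1 (0.0603) or of pig 4 (0.0582), without the organoids of pig 5 (0.0587), and when counts were scaled by library size alone (0.140). CRY1 (chromosome 5, 13275265 to 13429566, plus strand) rose 1.33-fold, from 40.8 ± 5.53 to 54.1 ± 4.61 CPM (log2 fold change 0.41, SE 0.12, edgeR adjusted p = 0.00850). Within a library, the ratio of CRY2 to CRY1 per kilobase was 4.68 to 7.11 in papillae and 1.73 to 3.65 in organoids, with no overlap.

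Of the REV-ERB pair, NR1D1 (chromosome 12, 22263549 to 22274131, plus strand) was at 91.1, 85.8, 65.6, 80.8 and 68.0 CPM in papillae and at 38.0, 44.8, 56.8, 21.5 and 67.5 CPM in organoids. Pig 5 showed almost no difference, and pig 4 the widest. NR1D1 fell 1.71-fold (log2 fold change -0.78, SE 0.25, edgeR adjusted p = 0.0183), a call lost with library size alone (0.0878). NR1D2 (chromosome 13, 10756954 to 10791219, plus strand) was at 93.3 ± 15.8 CPM in papillae and 96.6 ± 25.7 CPM in organoids (log2 fold change 0.05, SE 0.19, edgeR adjusted p = 0.827). It was higher in the organoids of pigs 1, 2 and 3 and lower in those of pigs 4 and 5. The sign of its fold change turned under some scalings.

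DBP, a transcription factor that follows CLOCK and ARNTL closely in many tissues (chromosome 6, 53986955 to 53993044, minus strand), was at 71.3, 54.4, 55.4, 67.3 and 85.4 CPM in papillae and at 20.02, 17.3, 22.2, 10.7 and 35.0 CPM in organoids. Every organoid library was below every papilla, with a 3.17-fold decrease (log2 fold change -1.67, SE 0.27, edgeR adjusted p = 2.20e-04). TEF, its relative (chromosome 5, 7119354 to 7135171, minus strand), was at 149, 113, 119, 124 and 145 CPM in papillae and at 80.2, 37.9, 66.9, 18.2 and 59.0 CPM in organoids. These groups did not overlap either, and TEF fell 2.48-fold (log2 fold change -1.31, SE 0.32, edgeR adjusted p = 0.00347).

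CLOCK, the activator of the loop (chromosome 8, 54793323 to 54910192, minus strand), moved the other way. Its level was 14.1, 11.4, 14.3, 18.6 and 25.3 CPM in papillae and 54.8, 42.5, 46.6, 34.2 and 42.6 CPM in organoids. The lowest organoid library exceeded the highest papilla, and the gene rose 2.64-fold (log2 fold change 1.40, SE 0.21, edgeR adjusted p = 1.39e-04). Groups without overlap were found for 6 of 10 members, 1 higher and 5 lower, against 54.1% of all genes tested. The ratio of PER1 to CLOCK per kilobase within a library was 21.7 to 67.9 in papillae and 2.40 to 3.76 in organoids.

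**Figure D2:**
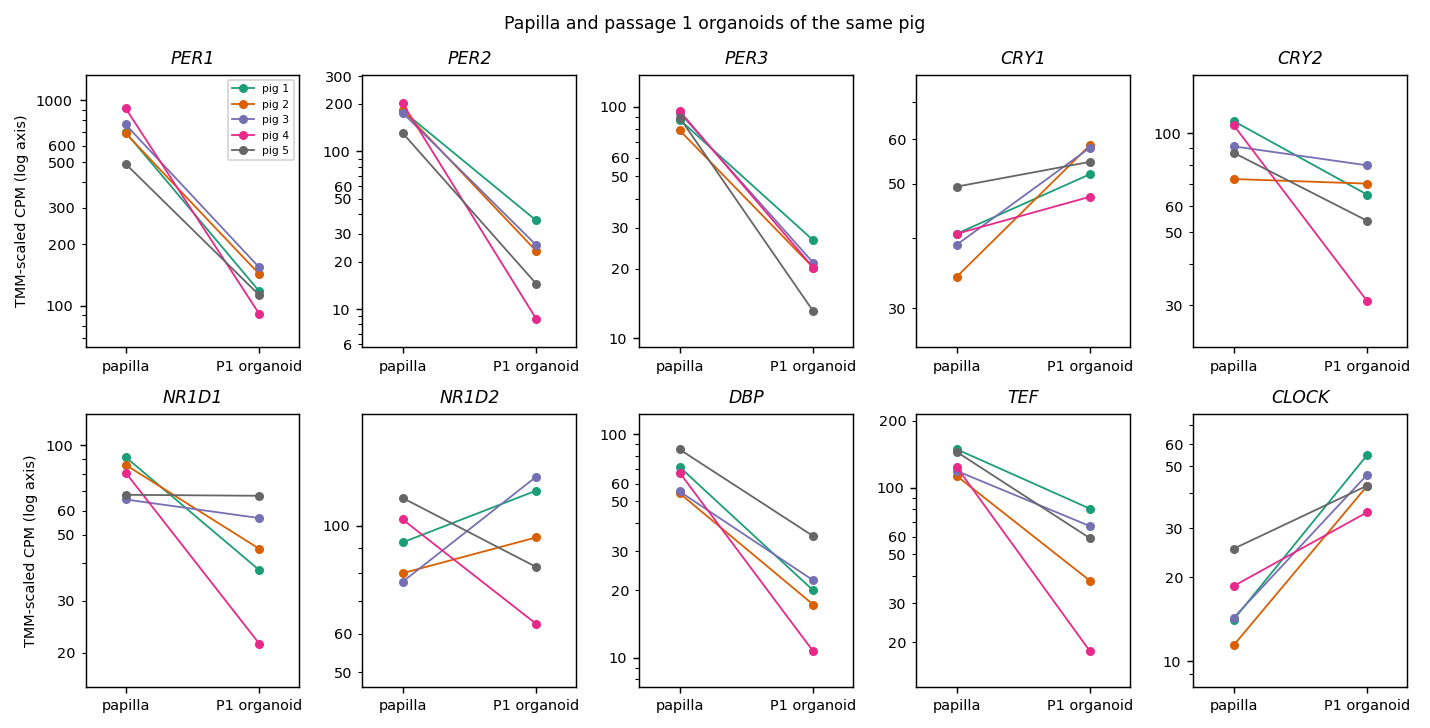
Level of each clock gene (TMM-scaled CPM, log axis) in the papilla and the passage 1 organoids of each of 5 pigs, joined by a line per pig. Lines of PER1, PER2, PER3, CRY2, NR1D1, DBP and TEF descend in 5 of 5 pigs. The descent is only 1.03-fold for CRY2 in pig 2 and 1.01-fold for NR1D1 in pig 5. Lines of CRY1 and CLOCK ascend in 5 of 5, whereas NR1D2 lines cross.

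Pigs differed in the size of the shift. For PER2 the log2 ratio of organoid to papilla was -2.31, -2.97, -2.79, -4.54 and -3.18 in pigs 1 to 5. Organoids of pig 4, the library with high MKI67, were the lowest of their group for 9 of 10 members. Without that library PER2 fell by 2.79 and TEF by 1.08 on the log2 scale, CLOCK rose by 1.49, and the same number of members, 9 of 10, was called. With pig as a block, also 9 of 10 were called.

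Other genes of the loop, taken from lists of 26 clock genes of which 24 were found under their symbols, were called in 19 of 24 cases (79.2%), 11 higher and 8 lower, beside a background of 67.5% of all genes tested, 32.4% called higher and 35.1% lower. All 3 of the activator partners rose. ARNTL went from 2.79 ± 0.913 to 8.28 ± 2.04 CPM (2.96-fold), NPAS2 from 17.6 ± 2.72 to 43.2 ± 7.55 CPM (2.45-fold) and ARNTL2 from 17.99 ± 7.76 to 93.7 ± 25.6 CPM (5.21-fold), with edgeR adjusted p-values of 3.24e-04, 2.28e-05 and 2.58e-05. RORA, a receptor that activates ARNTL, fell from 36.7 to 16.03 CPM (edgeR adjusted p = 5.46e-04), and its relative RORB, close to the limit of detection, from 1.01 to 0.209 CPM (0.0107).

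The D-box pair moved in opposite directions. HLF, the third activator beside DBP and TEF, fell 3.29-fold, from 59.4 ± 12.1 to 18.1 ± 4.89 CPM (edgeR adjusted p = 3.07e-05), and the D-box repressor NFIL3 rose 11.5-fold, from 5.52 ± 1.01 to 63.7 ± 19.5 CPM (5.51e-07). The TEF to NFIL3 ratio per kilobase within a library was 7.82 to 14.02 in papillae and 0.263 to 0.487 in organoids. In the list of repressors and their relatives, which includes NFIL3 and the activator HLF, 2 of 6 rose and 3 of 6 fell. Over all genes tested 32.4% were called higher and 35.1% lower. BHLHE40, an E-box repressor, rose from 92.3 to 412 CPM (1.55e-05), CIART, which represses CLOCK and ARNTL, fell from 47.0 to 8.54 CPM (3.88e-06), and CIPC fell from 78.5 to 52.5 CPM (0.00160). BHLHE41 was at 24.9 ± 4.62 and 20.1 ± 9.52 CPM (0.351).

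Of 7 kinase and ubiquitin ligase genes, whose products mark PER and CRY for degradation, 6 rose and 1 fell, where 32.4% of all genes tested were called higher. BTRC, 1 of the 6, named after its values were seen, rose 1.26-fold (edgeR adjusted p = 0.0400) and was called in 10 of 18 alternatives. GSK3B rose 1.96-fold (edgeR adjusted p = 9.65e-06) and FBXW11 1.87-fold (0.00504). FBXL21 fell 1.91-fold (0.0454), a call lost with pig as a block (0.0629), with no filter on low counts (0.0609), with TMM over all 22 libraries (0.0648), with library size alone (0.130) and in 8 of 10 fits that left out a library (0.0563 to 0.113). Of 5 output genes only USP2, a deubiquitinase driven by the clock in many tissues, was called, falling 6.58-fold from 44.6 ± 11.5 to 6.79 ± 3.17 CPM (2.09e-05).

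**Figure D3:**
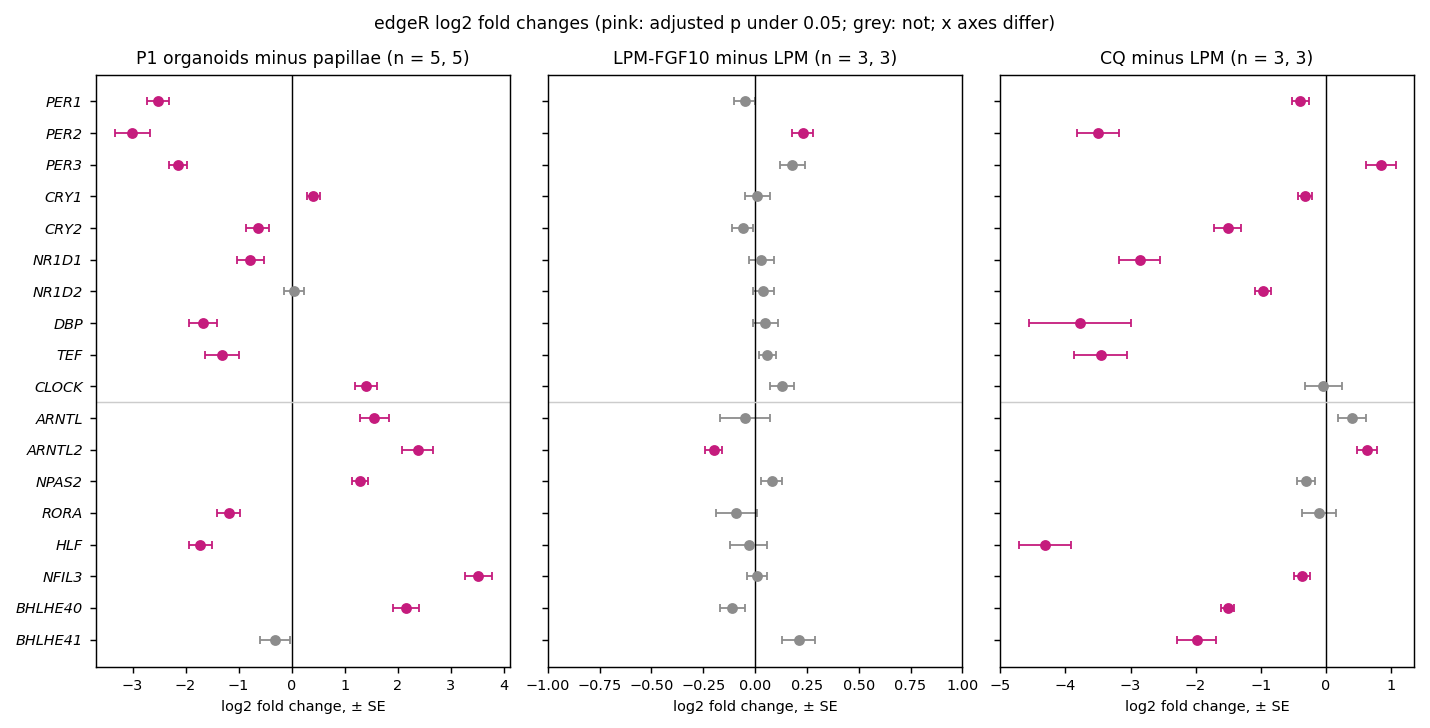
Log2 fold change with its SE (edgeR) of the 10 members, above the grey line, and of 8 other clock genes in 3 comparisons, pink where the adjusted p was under 0.05 and grey otherwise, with x axes of different width. In organoids against papillae the activators CLOCK, ARNTL, ARNTL2 and NPAS2 lie right of 0 and the PER genes left, LPM without FGF10 has PER2 and ARNTL2 called, and in CQ most members lie left of 0 with PER3 on the right.

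Papillae also held RNA of markers of other cell types, most of which were called lower in organoids. Fibroblast markers (COL1A1, COL1A2, COL3A1, DCN, LUM and PDGFRA) summed to 1851 to 6905 CPM in papillae and 0.779 to 3.12 CPM in organoids, with 6 of 6 called lower, and salivary gland markers to 41323 to 185008 and 26.4 to 169.6 CPM, with 5 of 5 lower. Skeletal muscle markers summed to 304 to 9131 CPM in papillae and 0.574 to 0.953 CPM in organoids, with 9 of 9 lower, and nerve and Schwann cell markers to 249 to 357 and 0.533 to 2.01 CPM, with 5 of 5 lower. Endothelial markers summed to 348 to 526 and 21.03 to 114 CPM, with 5 of 6 lower, and immune markers to 72.0 to 101 and 37.6 to 109 CPM, with 2 of 6 higher and 3 of 6 lower. MYH1, MYH2, DES, PTPRC and CD3E were at 0 in all 5 organoid libraries. The epithelial markers summed to 9263 to 12044 CPM in papillae and 2925 to 4769 CPM in organoids. Of these, 2 of 5 were higher and 3 of 5 lower in organoids. The taste cell markers summed to 387 to 608 and 1108 to 3099 CPM, with 1 of 6 higher and 3 of 6 lower. The shares over all genes tested were 32.4% called higher and 35.1% called lower. The part of these cells in the clock differences was not tested. In bulk RNA, fewer cells of a type and less RNA per cell cannot be told apart.

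Leaving FGF10 out of LPM was compared with complete LPM to describe what this growth factor contributes. PER2 rose slightly and was the only member called, 1 of 10 against a background of 1.78% of the 14262 genes tested, 0.582% called higher and 1.20% called lower. It was at 36.2, 38.1 and 36.8 CPM in LPM and at 44.6, 44.8 and 41.1 CPM without FGF10. The groups did not overlap, for this member alone of the 10 and for 16.6% of all genes tested, and the increase was 1.17-fold (log2 fold change 0.23, SE 0.05, edgeR adjusted p = 0.0187). It was lost without LPM replicate 1 (0.0840) or 2 (0.0590) and without replicate 1 (0.152) or 2 (0.0764) of the cultures lacking FGF10.

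PER3 was at 30.4 ± 2.84 and 34.2 ± 1.16 CPM (log2 fold change 0.18, SE 0.06, edgeR adjusted p = 0.222) and was called only without LPM replicate 3 (0.0392). The 9 members that were not called had log2 fold changes of -0.06 to 0.18 with SEs of 0.04 to 0.06, so a change as large as that of PER1, PER2, PER3, DBP, TEF or CLOCK between papillae and organoids would have exceeded these errors many times over. Libraries within these groups were close, with a mean chi-square of 2.76 to 5.18 per gene between replicates. The members' median log2 fold change was 0.04, against 0.00 over all genes. Of 23 other clock genes tested, ARNTL2 alone was called, falling from 101 ± 2.75 to 87.8 ± 3.65 CPM (log2 fold change -0.20, SE 0.04, edgeR adjusted p = 0.0113), a call lost without LPM replicate 2 (0.0839) and without replicate 1 (0.0891) or 3 (0.0606) of the cultures lacking FGF10. BHLHE40 was called lower only without replicate 2 of the cultures lacking FGF10 (log2 fold change -0.23, 0.00540).

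Cultures finished in CQ were compared with cultures kept in LPM. PER2, DBP, TEF and NR1D1 fell by 7.27-fold or more, CRY2 and NR1D2 by 2.85-fold and 1.96-fold, and PER1 and CRY1 by less than 1.5-fold, whereas PER3 rose and CLOCK was not called. The count of members called was 9 of 10, 1 higher and 8 lower, against a background of 47.9% of the 13827 genes tested, 23.1% called higher and 24.8% lower. Their median log2 fold change was -1.24, against -0.07 over all genes. Of all called genes 48.1% were higher in CQ, a share that became 28.4% when TMM was computed over all 22 libraries, with the median over all genes at -0.37. Under that scaling the 8 lower calls among the members were still made, and the 1 higher call, PER3, was not. In the comparison with papillae that share was 48.0%, and 59.6% with library size alone, where the median over all genes was 0.28.

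PER2 was at 28.9, 31.6 and 23.1 CPM in LPM and at 2.02, 3.66 and 1.64 CPM in CQ. All CQ libraries lay far below the LPM range. The mean went from 27.9 ± 4.33 to 2.44 ± 1.07 CPM (n = 3 each), an 11.3-fold decrease (log2 fold change -3.50, SE 0.32, edgeR adjusted p = 3.38e-05). PER3 went the opposite way, from 10.6, 10.1 and 9.41 CPM to 18.6, 21.97 and 13.3 CPM, without overlap. Its 1.79-fold increase (log2 fold change 0.84, SE 0.23, edgeR adjusted p = 0.0153) was lost without LPM replicate 2 (0.0627) and with TMM over all 22 libraries (0.0843). The PER2 to PER3 ratio per kilobase within a library was 4.98 to 6.34 in LPM and 0.220 to 0.338 in CQ.

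PER1 differed much less than PER2. It was at 57.2, 69.2 and 61.4 CPM in LPM and at 48.2, 44.4 and 51.2 CPM in CQ, with a log2 fold change of -0.39 (SE 0.13, edgeR adjusted p = 0.0313). This call was lost with library size alone (0.0693), without LPM replicate 2 (0.139) and without CQ replicate 1 (0.0567) or 2 (0.0678).

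CRY2 was at 31.7, 39.6 and 35.0 CPM in LPM and at 11.3, 10.0 and 16.0 CPM in CQ (log2 fold change -1.51, edgeR adjusted p = 3.74e-04). CRY1 was at 79.6 ± 2.83 and 63.8 ± 4.58 CPM (log2 fold change -0.32, edgeR adjusted p = 0.0403). The CRY1 call was lost with library size alone (0.0955), without LPM replicate 1 (0.108) or 2 (0.0873) and without CQ replicate 2 (0.0562) or 3 (0.0938). The ratio of CRY2 to CRY1 per kilobase was 1.02 to 1.37 in LPM and 0.409 to 0.718 in CQ.

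The REV-ERB receptors fell unequally. NR1D1 was at 46.6, 57.3 and 46.3 CPM in LPM and at 4.78, 10.9 and 4.93 CPM in CQ, a 7.27-fold decrease (log2 fold change -2.86, SE 0.31, edgeR adjusted p = 9.63e-05). NR1D2 was at 198, 187 and 155 CPM in LPM and at 99.7, 85.6 and 89.8 CPM in CQ, a 1.96-fold decrease (log2 fold change -0.97, SE 0.12, edgeR adjusted p = 2.58e-04). Within a library NR1D1 per kilobase was 0.169 to 0.221 times NR1D2 in LPM and 0.0345 to 0.0914 times in CQ.

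Both D-box activators were nearly lost from CQ cultures. TEF was at 55.1, 60.6 and 53.7 CPM in LPM and at 5.72, 1.71 and 8.03 CPM in CQ, a 10.98-fold decrease (log2 fold change -3.46, SE 0.41, edgeR adjusted p = 1.73e-04). DBP was at 11.5, 14.02 and 14.9 CPM in LPM and at 1.68, 0 and 1.26 CPM in CQ, a 13.8-fold decrease (log2 fold change -3.78, SE 0.78, edgeR adjusted p = 0.00358). Those DBP levels rest on 25, 0 and 20 counts. A count of 0 allows up to 3 counts, and with the CQ variance ratio of 12.6, a scaling chosen after the counts were seen, up to 37.8 counts, or at most 2.55 CPM in a CQ library. All CQ levels of DBP lie under that limit, as do PER2 in CQ replicates 1 and 3 and TEF in replicate 2, so the size of the DBP decrease in particular is uncertain.

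CLOCK was at 70.2, 67.2 and 30.3 CPM in LPM and at 59.7, 57.9 and 45.9 CPM in CQ (log2 fold change -0.04, SE 0.28, edgeR adjusted p = 0.932). LPM replicate 3, the library that stood apart, sits below every CQ library and the other LPM libraries above. Without it the CLOCK log2 fold change was -0.35 and 9 of 10 members were called. Groups without overlap were found for 9 of 10 members, 1 higher and 8 lower, against 61.1% of all genes tested. MKI67 was at 57.2 to 91.8 CPM in LPM and 0.126 to 6.47 CPM in CQ. Endothelial markers summed to 12.0 to 17.7 CPM in LPM and 1.53 to 3.35 CPM in CQ, immune markers to 68.8 to 90.3 and 32.4 to 44.7 CPM, taste cell markers to 1221 to 1548 and 2061 to 2171 CPM, and epithelial markers to 3509 to 3906 and 3286 to 3633 CPM. Of those tested, 2 of 2 endothelial and 3 of 5 epithelial markers were called lower, 2 of 4 immune markers higher and 2 of 4 lower, and 1 of 4 taste cell markers higher and 1 of 4 lower. The shares over all genes tested were 23.1% called higher and 24.8% called lower. The part of these marker differences in those of the clock genes was not tested.

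Of 24 other clock genes 13 (54.2%) were called in CQ, 4 higher and 9 lower, beside a background of 47.9%, 23.1% called higher and 24.8% lower. HLF fell most, from 17.2, 15.6 and 12.7 CPM to 1.14, 0.427 and 0.695 CPM (log2 fold change -4.32, SE 0.40, edgeR adjusted p = 3.67e-05), and its CQ levels rest on 7 to 17 counts per library, under the same limit. BHLHE40 fell from 832 to 291 CPM (edgeR adjusted p = 5.59e-06). BHLHE41 fell from 10.00 to 2.52 CPM (6.63e-04), on 35, 42 and 42 counts in CQ, at that limit. NFIL3 fell 1.29-fold, from 79.1 to 61.3 CPM (0.0284). The NFIL3 call was lost with library size alone (0.0709) and with the replicate block (0.0556). That call was also lost without LPM replicate 1 or 2 and without CQ replicate 1 or 2 (0.0516 to 0.108). NFIL3, which had stood opposite to TEF between papillae and organoids, here moved in the same direction as TEF, by a call that several alternatives lost. The TEF to NFIL3 ratio per kilobase was 0.329 to 0.352 in LPM and 0.0143 to 0.0565 in CQ. CIPC rose from 51.8 to 71.5 CPM (0.00929), lost without LPM replicate 2 (0.0655) and with TMM over all 22 libraries (0.280).

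Among activators, ARNTL2 rose from 84.4 ± 14.7 to 130.5 ± 15.6 CPM (log2 fold change 0.63, edgeR adjusted p = 0.00829), lost with TMM over all 22 libraries (0.0811). ARNTL was at 9.85 ± 1.07 and 12.96 ± 1.48 CPM (0.164) and NPAS2 at 51.8 ± 7.55 and 42.0 ± 3.02 CPM (0.117), the latter called lower without LPM replicate 3 (0.0209) and with TMM over all 22 libraries (0.00646). RORA was at 16.9 ± 3.66 and 15.8 ± 4.39 CPM (0.782). Of 7 kinase and ligase genes 1 rose, GSK3B (127 to 224 CPM, 0.00509), and 3 fell, among them CSNK1A1 (796 to 605 CPM, 0.00453) and FBXL21 (10.3 to 5.75 CPM, 0.0213; lost without any 1 of the LPM replicates, 0.0513 to 0.104). Of 5 output genes NOCT, which encodes the deadenylase nocturnin, rose from 6.56 to 16.3 CPM (0.00324) and WEE1, a cell cycle kinase gene with E-box control, fell from 20.9 to 8.85 CPM (0.00348). These counts stand beside 23.1% of all genes tested called higher and 24.8% called lower.

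**Figure D4:**
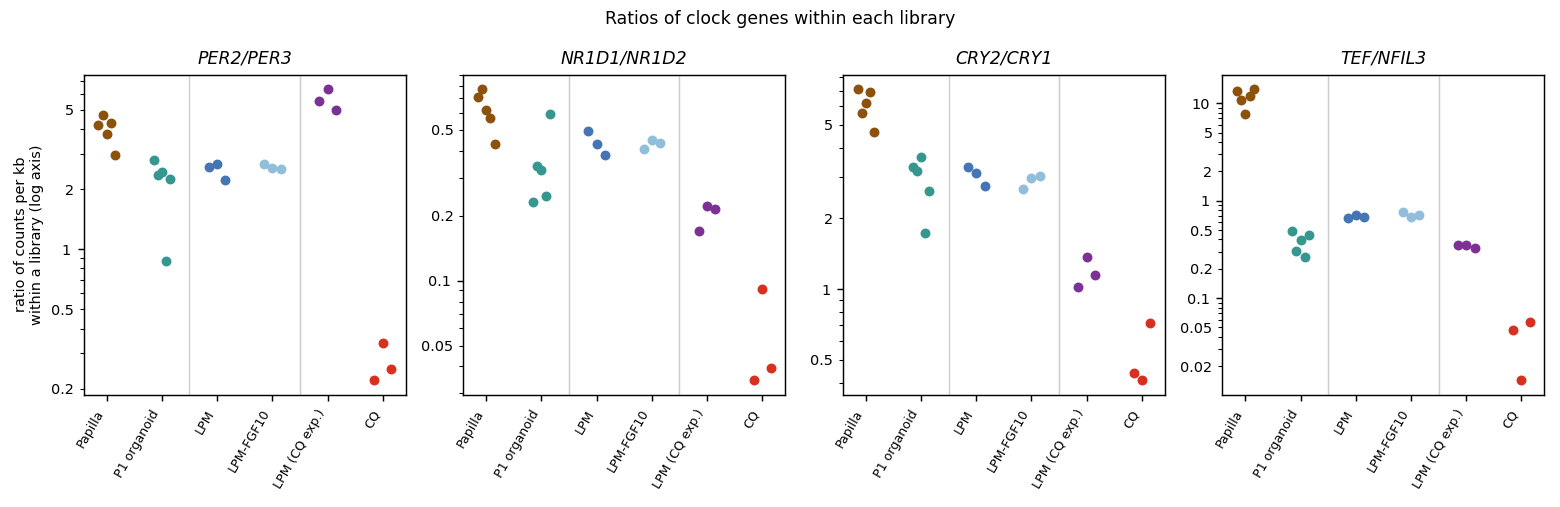
Ratio of counts per kilobase of a pair of clock genes within each of 22 libraries (log axes of different range), by group, with grey lines between experiments. Papillae have the highest TEF to NFIL3 ratio (7.82 to 14.02) and CRY2 to CRY1 ratio (4.68 to 7.11), and CQ cultures the lowest PER2 to PER3 ratio (0.220 to 0.338).

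Several members share exons with a neighbour, and because strand was ignored in counting, reads of both cannot be told apart. NR1D1 shares 2985 exonic bases, 41.1% of its length, with THRA on the opposite strand, the thyroid hormone receptor alpha gene. THRA fell as well, from 77.4 to 38.1 CPM in organoids (edgeR adjusted p = 0.00102) and from 31.7 to 9.34 CPM in CQ (1.16e-04). CLOCK shares 3027 bases (44.3%) with TMEM165 on the opposite strand, which was at 101 ± 3.72 CPM in papillae and 101 ± 9.08 CPM in organoids (0.911) while CLOCK rose 2.64-fold. In CQ, TMEM165 rose from 125 to 162 CPM (0.00906; lost with TMM over all 22 libraries, 0.504, and without LPM replicate 2, 0.0538). CRY1 shares 2397 bases (13.9%) with MTERF2 on the same strand and 1581 bases (9.2%) with TMEM263 on the opposite strand. These rose from 6.52 to 9.83 CPM (0.0110) and from 26.5 to 43.1 CPM (0.0113) in organoids, and in CQ were at 15.4 ± 1.01 and 20.3 ± 5.19 CPM (0.152) and fell from 95.5 to 30.9 CPM (2.37e-05).

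Cultures labelled LPM did not have the same levels in each experiment. In LPM, NR1D2 was at 96.6 ± 25.7 CPM in passage 1 organoids, 90.7 ± 3.77 CPM in the FGF10 experiment and 180.0 ± 22.4 CPM in the CQ experiment, where every LPM library lay above those of the other experiments. DBP was at 21.03 ± 8.92, 43.0 ± 2.77 and 13.5 ± 1.78 CPM, PER1 at 124 ± 24.8, 139 ± 8.76 and 62.6 ± 6.08 CPM and PER3 at 20.3 ± 4.77, 30.4 ± 2.84 and 10.04 ± 0.610 CPM in that order. These groups were scaled within their own comparison and were not tested against each other. The additions to LPM are not given in the sample labels of the CQ experiment, and passage is given only for passage 1 organoids. The CQ experiment was also counted with another featureCounts version and gene annotation. Medium, passage, culture age and processing therefore cannot be told apart here.

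By mean level over all 6 groups, papillae stood at the top and CQ cultures at the bottom for PER1, PER2, CRY2, NR1D1, DBP and TEF. Papillae overlapped passage 1 organoids for CRY2 and NR1D1. PER3 was also highest in papillae, but its lowest group was LPM of the CQ experiment. CRY1 and CLOCK had papillae as the lowest group. NR1D2 differed from its neighbours only in LPM of the CQ experiment, its other 5 groups overlapping from 90.7 to 96.6 CPM on average. Groups were scaled within their own comparison. TMM over all 22 libraries shifted levels by -9.90% in CQ and 5.46% in LPM of the FGF10 experiment. Overlaps between experiments may therefore depend on the scaling.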

How the data were processed

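Poly-A selected RNA of 22 pig samples was sequenced by the authors. Per the submitters' processing notes, STAR 2.7.10b and featureCounts were used. Each deposited file holds raw counts of read pairs per gene, not normalized, made by the authors with featureCounts 2.0.3 (papilla, passage 1 and FGF10 libraries) or 2.0.6 (CQ experiment), per the file headers, which also record that strand was ignored, that a pair falling on more than 1 gene was counted for every such gene and that pairs mapping to several places were not counted. Coordinates are those of the files and match RefSeq gene positions on Sscrofa11.1. An entry without a gene name in the CQ files was left out of totals and tests.

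From these counts, each comparison was fitted on its own groups with edgeR 4.0.16 in R 4.3.3 (TMM, filterByExpr, quasi-likelihood F test, 2-sided, Benjamini-Hochberg over all genes tested, threshold 0.05). The script was tested on simulated data. Alternatives were RLE or library-size scaling, TMM over all 22 libraries, no filter, DESeq2 1.42.0, limma 3.58.1 voom, a replicate block, leaving out each library and, added after the counts were seen, voom with group weights. Papillae and passage 1 organoids are paired by pig per the labels; deviations from group means of the same pig correlated by 0.03 to 0.11 (n = 5 pairs). No 2 replicates agreed within sampling noise. Floors allow for counting error alone: the reads carry no molecular identifiers, so copies of 1 molecule are counted apart.

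The 10 genes and the lists of other clock genes and cell type markers were chosen with earlier results of these data known. Always named were the 10 genes, ARNTL, ARNTL2, NPAS2, RORA, HLF, NFIL3, BHLHE40, BHLHE41 and genes sharing exons with the 10. Of the other listed genes, up to 2 called per list and direction were named, by smallest p. A gene covered by this rule is not reported here. Listed genes TIMELESS and CSNK1E were not found under these symbols and were not analysed here.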

Additional observations from a re-analysis of the deposited data

Results flagged for a closer look

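In the groups of 5, where the 10 clock genes and the other named clock genes gave 52 series of levels, 4 libraries stood outside the spread of the other 4 by Dixon's test at the 95% level. None was a value of the 10 members. Chance flags about 1 in 20 groups.

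ARNTL was at 11.8 CPM in the passage 1 organoids of pig 5 and at 6.65 to 8.08 CPM in the others. RORB was at 0.656 CPM in the organoids of pig 2 and at 0.0328 to 0.132 CPM in the others. NFIL3 was at 7.30 CPM in the papilla of pig 3 and at 4.96 to 5.38 CPM in the others. GSK3B was at 102 CPM in the organoids of pig 4, the library with the highest MKI67, and at 113 to 114 CPM in the others.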

How the results depend on the processing

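Leaving out 1 library at a time, 8 to 9 members were called between papillae and organoids, 6 to 9 in CQ and 0 to 2 without FGF10. No called member changed direction under any alternative run. Signs turned only for uncalled genes. Between papillae and organoids NR1D2 was at -0.01 (log2 fold change) with RLE and with DESeq2 and at -0.05 to 0.18 when each library was left out, and TMEM165 at -0.05 with RLE and with DESeq2 and at -0.02 to 0.06 without a library. In CQ, CLOCK was at 0.03 with library size alone, 0.08 with voom, 0.05 with the replicate block, 0.07 with group weights and -0.35 to 0.14 without a library, and RORA at -0.35 to 0.03. In the FGF10 experiment the fits that left out a library spanned 0 for PER1 (-0.08 to 0.01), CRY1 (-0.05 to 0.07), NR1D1 (-0.04 to 0.11), ARNTL (-0.14 to 0.09), NFIL3 (-0.06 to 0.05), MTERF2 (-0.05 to 0.15), THRA (-0.02 to 0.07) and TMEM263 (-0.05 to 0.03). There CRY1 and NFIL3 were at -0.00 with TMM over all 22 libraries and TMEM263 at 0.00 with library size alone. The cause was not tested.

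With pig as a block the call of FBXL21 was lost and that of no other named gene. In the media experiments it is not stated whether the replicate numbers pair samples. Deviations of same-numbered libraries correlated by -0.08 to 0.09 (FGF10) and -0.02 to 0.03 (CQ), and not every library correlated best with its own number. Papillae and organoids known to share a pig correlated by only 0.03 to 0.11, so these values cannot decide the question. With the replicate block 1 member was called without FGF10 and 7 in CQ, where PER1 (edgeR adjusted p = 0.0637) and CRY1 (0.0816) were no longer called. Among the other named clock genes, the CQ calls of NFIL3 (0.0556) and FBXL21 (0.0625) were lost with that block. In the CQ libraries the scatter of low counts limits the size of changes in genes near the limit given above.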

Other observations

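The genes whose levels ran most like the clock members were sought among 15880 genes in both annotations, as the Pearson correlation of log2(CPM + 1) with the mean of the 10 members' standardized levels over 22 libraries. These values are a description: the libraries share groups and experiments, and no p is given. Highest were ARHGEF19 (r = 0.96), PADI2 (0.95) and CYP2R1 (0.95), and lowest METTL12 (-0.96), NINL (-0.96) and STIP1 (-0.95). The members, each of which is part of that mean, ran from 0.97 for TEF and 0.95 for NR1D1 to -0.06 for CRY1 and -0.27 for CLOCK, so the mean mostly follows TEF, NR1D1, CRY2, DBP and PER2.

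With group means removed, which leaves the differences between libraries of a group, the highest were RIOK3 (0.94), PCMTD1 (0.94) and FAM177A1 (0.93), and the lowest EZH2 (-0.94), TONSL (-0.93) and ARHGEF39 (-0.93). EZH2 encodes a histone methyltransferase of Polycomb repression and TONSL a factor of replication fork repair. The organoids of pig 4, lowest for 9 of 10 members and highest in MKI67, are among these libraries, and their part in these values was not tested.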
